A study of Homo sapiens with 12 samples.

Results

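The S100 genes encode small calcium-binding proteins, and 9 of them, S100A4, S100A6, S100A8, S100A9, S100A10, S100A11, S100A13, S100B and S100P, were followed here across 12 arrays of H929. This is a long-established cell line from a human myeloma, a tumour of the plasma cells that secrete antibody. The genes were chosen by their symbol, with earlier results of these arrays known, so their levels and changes are descriptions. Their own differences are given with intervals and without p-values, and which of them the fit over all genes called is given beside the share of all genes called. They have 14 of the 54675 probe sets of the array and are 9 of the 19775 genes with a named probe set. The first treated group, shBCL9, carried a short hairpin RNA against BCL9, a coactivator of beta-catenin in the Wnt pathway, and its control, shGFP, a hairpin against green fluorescent protein. Both were infected and then sorted for fluorescent cells, although the hairpin of the control group is directed at that protein by its name. The second treated group, miR-30, was transfected with human miR-30a, b, c, d or e (the labels do not say whether together), and its control with the worm microRNA cel-miR-67. Each group had 3 arrays and all 4 groups share the cell line. Whether the 3 arrays of a group stand for separate cultures is not labelled, so p-values measure only the spread between arrays, which may be technical. The series was built to compare the loss of BCL9 with the gain of miR-30, which its title names as acting on BCL9.

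An S100 protein carries a pair of EF-hands, helix-loop-helix motifs that bind calcium, and most form dimers. Calcium opens a surface on the dimer that binds target proteins, among them annexins, which attach to membranes, and myosin. Inside cells S100 proteins act on the cytoskeleton, on membranes and on growth. Some are released and signal through the receptor AGER (RAGE), the receptor TLR4 or basigin (BSG). S100A4 and S100A6 are linked to migration and proliferation in many tumours, and S100A4 has been described as a target of beta-catenin in colon cancer cells. S100A8 and S100A9 are abundant in neutrophils and monocytes, S100B in glia and melanocytes, and S100P was found in placenta.

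The promoters of 4 members are shown because these members differ in what they did: S100A4 and S100A6 were the members with large differences, S100A11 went the other way in the hairpin arm and S100A10 differed little in either arm. Each run is the 250 bases before the gene's start, on its own strand, from RefSeq on GRCh38.p14, and capitals mark matches to the motifs searched. They lie on the minus strand of chromosome 1, at chr1:153545807-153546056 for S100A4, chr1:153535992-153536241 for S100A6, chr1:152037005-152037254 for S100A11 and chr1:151993860-151994109 for S100A10.
S100A4 promoter: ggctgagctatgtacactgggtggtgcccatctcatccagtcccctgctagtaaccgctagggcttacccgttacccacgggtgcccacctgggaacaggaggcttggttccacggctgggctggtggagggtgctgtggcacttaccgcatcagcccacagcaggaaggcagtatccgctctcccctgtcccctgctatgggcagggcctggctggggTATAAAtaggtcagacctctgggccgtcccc
S100A6 promoter: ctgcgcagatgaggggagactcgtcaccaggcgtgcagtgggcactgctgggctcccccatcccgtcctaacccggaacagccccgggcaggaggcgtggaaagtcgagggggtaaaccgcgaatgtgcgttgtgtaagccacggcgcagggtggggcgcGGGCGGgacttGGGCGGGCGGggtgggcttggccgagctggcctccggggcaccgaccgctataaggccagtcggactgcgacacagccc
S100A11 promoter: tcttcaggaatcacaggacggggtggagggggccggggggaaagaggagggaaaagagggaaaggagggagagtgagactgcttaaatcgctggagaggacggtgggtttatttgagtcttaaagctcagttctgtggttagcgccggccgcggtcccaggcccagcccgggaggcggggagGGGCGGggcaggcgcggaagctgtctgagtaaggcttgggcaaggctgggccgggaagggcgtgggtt
S100A10 promoter: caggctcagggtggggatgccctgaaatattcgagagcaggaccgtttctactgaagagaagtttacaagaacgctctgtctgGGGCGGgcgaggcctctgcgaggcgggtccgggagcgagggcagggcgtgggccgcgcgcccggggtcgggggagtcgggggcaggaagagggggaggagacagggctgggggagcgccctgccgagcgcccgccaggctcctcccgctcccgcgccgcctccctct
The motifs were TATAAA (the TATA box), CTTTGAT (a TCF/LEF consensus, the factors that beta-catenin binds) and GGGCGG (the GC box of Sp1), on both strands. S100A4 held TATAAA 31 bases before its start and no GGGCGG. S100A6 held 3 matches to GGGCGG, beginning 90, 79 and 75 bases before its start, the last 2 overlapping each other. S100A11 and S100A10 each held 1 match to GGGCGG, 68 and 167 bases before the start. None of these 4 windows held CTTTGAT. Among the 35116 promoter windows of the table, 10.7% held TATAAA, 2.26% CTTTGAT and 42.6% GGGCGG. The GC content was 62.8% for S100A4, 70.0% for S100A6, 63.6% for S100A11 and 71.2% for S100A10, against a median of 58% in the table.

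The mature microRNAs of the transfected arm are shown because they share a seed, the bases 2 to 8 printed in capitals.
hsa-miR-30a-5p: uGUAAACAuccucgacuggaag
hsa-miR-30c-5p: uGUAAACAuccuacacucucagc
hsa-miR-30e-5p: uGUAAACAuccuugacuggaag
These 3 had the same seed. The last bases of miR-30a and miR-30e were the same and those of miR-30c differed, while miR-30b and miR-30d are named only.

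Array levels are log2 intensities made by the authors, and levels of different probe sets are not set against each other, since probes differ in how brightly they bind. A gene entered the tests with its brightest probe set if it lay in 3 or more arrays above the 40th percentile, which lay between 4.86 and 4.95, and 14725 genes did. Of the 9 members 5 passed: S100A4, S100A6, S100A10, S100A11 and S100A13, each above that level in all 12 arrays. S100P was just outside, above it in 2 arrays, and S100A8 in 1 array. S100A9 and S100B were above it in none. A gene is called changed where limma's adjusted p over all genes tested was under 0.05.

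BCL9, the target of the hairpin, averaged 7.73 ± 0.12 in arrays labelled shBCL9 against 7.88 ± 0.01 in those labelled shGFP, and 7.96 ± 0.11 in miR-30 against 7.82 ± 0.04 in cel-miR-67 (all SD, n = 3 per group). Neither difference was called (limma adjusted p = 0.0874 and 0.269). Markers were used to check the cell line, not the group labels, since all groups share it. All 10 plasma cell markers and both t(4;14) genes of H929, NSD2 and FGFR3, passed the level filter. Some of their levels still differed between groups. In shBCL9 against shGFP limma called 3 plasma cell markers higher and 2 lower, where 18.7% of all genes were called higher and 22.9% lower. In miR-30 against cel-miR-67 it called 0 higher and 1 lower, where the shares were 2.34% and 2.63%. In shGFP against cel-miR-67 it called 7 higher and 2 lower, where the shares were 28.4% and 33%. FGFR3 averaged 9.92 ± 0.08 in shBCL9 and 10.72 ± 0.03 in shGFP, and 8.63 ± 0.13 in miR-30 and 8.62 ± 0.03 in cel-miR-67 (all SD, n = 3 per group). Of 12 myeloid markers on the array 4 passed, CSF1R, ITGAM, CSF3R and CTSG, each above the filter in all 12 arrays. CD14, LYZ, MPO, ELANE, FCN1, VCAN, AZU1 and PRTN3 were below it in every array. The log2 of the summed intensity of the myeloid markers was 8.70 to 8.81 in shBCL9, 8.65 to 8.72 in shGFP, 8.55 to 8.67 in miR-30 and 8.49 to 8.60 in cel-miR-67. Of 10 epithelial and stromal markers 6 passed, and the log2 of the summed intensity of all 10 was 9.90 to 10.02 in shBCL9, 9.58 to 9.71 in shGFP, 9.91 to 9.99 in miR-30 and 9.95 to 10.04 in cel-miR-67. In each of these 2 lists limma called 1 gene higher in shBCL9 than in shGFP, where 18.7% of all genes were called higher. KRT18, a keratin, was the epithelial one, at 9.05 ± 0.12 in shBCL9, against 8.55 ± 0.06 in shGFP (SD, n = 3). CSF3R was the myeloid one, at 5.46 ± 0.07 in shBCL9, against 5.28 ± 0.04 in shGFP (SD, n = 3). RNA measures were compared within each arm. The ACTB 3' minus 5' difference was 1.67 ± 0.08 in shBCL9 against 1.30 ± 0.11 in shGFP, and 18S rRNA was 13.23 ± 0.02 in shBCL9 against 12.38 ± 0.07 in shGFP (SD, n = 3). Each difference had p = 0.1 in a two-sided exact permutation test, which cannot go lower with 3 arrays a group. The same p was found in that arm for the hybridisation spike-ins, lower in shBCL9 by a difference of -0.27, and the poly-A spike-ins, by -0.65. The GAPDH 3' minus 5' difference was 0.13 ± 0.02 in shBCL9 against 0.14 ± 0.02 in shGFP (SD, n = 3, exact permutation p = 0.5). Between miR-30 and cel-miR-67 18S rRNA differed by 0.14 (exact permutation p = 0.1) and the ACTB measure by -0.08 (p = 0.4). The ACTB measure is added to the model below. It differed between shBCL9 and shGFP, so the model can hardly separate it from the difference between those groups. What part any of these measures has in the differences of the S100 genes was not tested.

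In the hairpin arm S100A4 and S100A6 were much lower in shBCL9, S100A11 was higher, and S100A10 and S100A13 hardly differed. S100A4, a partner of non-muscle myosin, had 10.34, 10.27 and 10.24 in shBCL9, against 11.77, 11.81 and 11.82 in shGFP. The highest shBCL9 array was more than a log2 unit under the lowest shGFP array. The difference was -1.52 (SE 0.06, 95% interval -1.65 to -1.39), a 2.86-fold lower level. In bulk RNA, fewer cells with the transcript and less of it per cell cannot be told apart. S100A6, also called calcyclin, which binds annexins and the calcyclin-binding protein CACYBP, had 10.38, 10.24 and 10.34 in shBCL9, against 11.56, 11.70 and 11.65 in shGFP. The groups did not overlap here either. The difference was -1.32 (SE 0.06, 95% interval -1.45 to -1.20), a 2.50-fold lower level. Of the 14725 genes tested, 69 had a difference as low as S100A4's or lower and 104 as low as S100A6's or lower, both members included.

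S100A11, which binds annexin A1 in a calcium-dependent way, had 10.85, 10.75 and 11.11 in shBCL9, against 10.59, 10.50 and 10.59 in shGFP. The 3 shBCL9 arrays were all above the 3 shGFP arrays, replicate 3 by the most. The difference was 0.35 (SE 0.08, 95% interval 0.17 to 0.52), a 1.27-fold higher level. S100A10, the p11 subunit that forms a complex with annexin A2 and cannot bind calcium itself, had 9.41, 9.44 and 9.33 in shBCL9, against 9.41, 9.43 and 9.40 in shGFP. These groups overlapped, and the difference was -0.02 (95% interval -0.12 to 0.08). S100A13, which takes part in the release of FGF1, had 6.92, 7.05 and 6.90 in shBCL9, against 7.04, 7.02 and 6.92 in shGFP. They overlapped as well, with a difference of -0.04 (95% interval -0.16 to 0.09). Among the 5 tested members 1 was called higher and 2 lower, where 18.7% of all genes were called higher and 22.9% lower. The same 3 had groups that did not overlap, as did 52% of all genes. The members were selected on these arrays, so nothing is read from the counts. The median difference was -0.04 over the 5 tested members and 0.03 over all genes.

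S100A4 and S100A11 have 1 probe set each, and the one of S100A4 has a suffix that marks probes matching several transcripts. The second probe set of S100A6 ran from 4.42 to 4.95, with 1 array above the filter, and differed by -0.21 (95% interval -0.41 to -0.02). Averaging it with the first gave a difference of -0.77 for S100A6. Adding the ACTB 3' to 5' difference to the model gave -1.48 for S100A4 and -1.31 for S100A6, close to the values without it, and 0.59 for S100A11, a larger difference than without it. The ACTB measure itself differed between shBCL9 and shGFP, so the model can hardly separate it from the group difference. These values therefore do not tell what part it has.

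**Figure D1:**
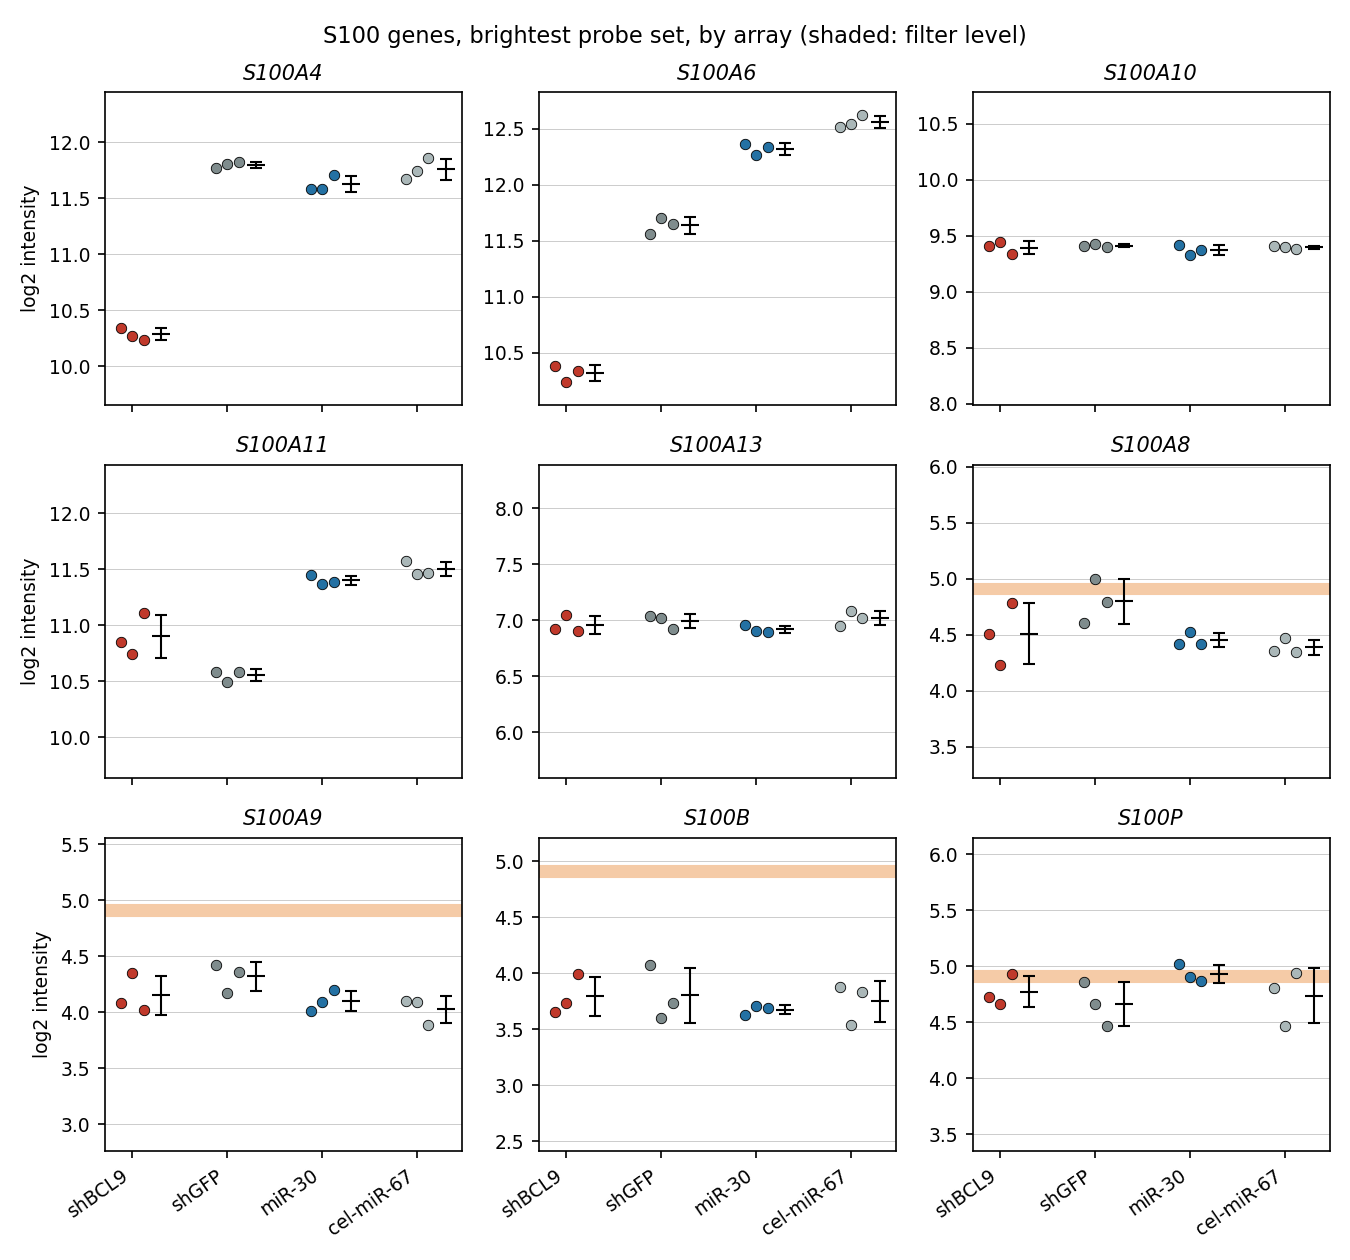
Log2 intensity of the brightest probe set of each S100 gene in every array (points), with the group mean and SD beside them, for shBCL9, shGFP, miR-30 and cel-miR-67. Every panel spans the same number of log2 units, and the shaded band marks the filter level of 4.86 to 4.95. The 3 shBCL9 arrays lay lowest for S100A4 and S100A6, while S100A10 and S100A13 were level over the 4 groups.

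In the transfected arm the same genes differed little between miR-30 and cel-miR-67. S100A6 had 12.36, 12.26 and 12.34 in miR-30, against 12.52, 12.55 and 12.62 in cel-miR-67. The groups did not overlap, and the difference was -0.24 (SE 0.06, 95% interval -0.37 to -0.11), a 1.18-fold lower level. S100A4 had 11.58, 11.58 and 11.71 in miR-30, against 11.67, 11.74 and 11.86 in cel-miR-67. The highest miR-30 array lay above the lowest cel-miR-67 array, and the difference was -0.14 (95% interval -0.26 to -0.01). S100A11 had 11.45, 11.37 and 11.39 in miR-30, against 11.57, 11.46 and 11.47 in cel-miR-67. The groups did not overlap, though the highest miR-30 array was close to the lowest cel-miR-67 array, and the difference was -0.10 (95% interval -0.27 to 0.08).

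S100A10 differed by -0.03 (95% interval -0.13 to 0.08), with 9.41, 9.32 and 9.37 in miR-30 and 9.40, 9.40 and 9.38 in cel-miR-67. S100A13 differed by -0.10 (95% interval -0.22 to 0.03) in its brighter probe set. Its second probe set, which ran from 5.52 to 6.11 and passed the filter in all 12 arrays, went the other way, by 0.13 (95% interval -0.08 to 0.33). S100A6 alone was called, lower, where 2.63% of all genes were called lower and 2.34% higher. S100A6 and S100A11 had groups that did not overlap, as did 26.1% of all genes. The median difference was -0.10 over the 5 tested members and -0.02 over all genes. The call of S100A6 was lost without a filter, with only the 6 arrays of the arm, with the ACTB 3' to 5' difference in the model, with the mean of its probe sets, which gave -0.09, and without any 1 of the 6 arrays of the arm.

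**Figure D2:**
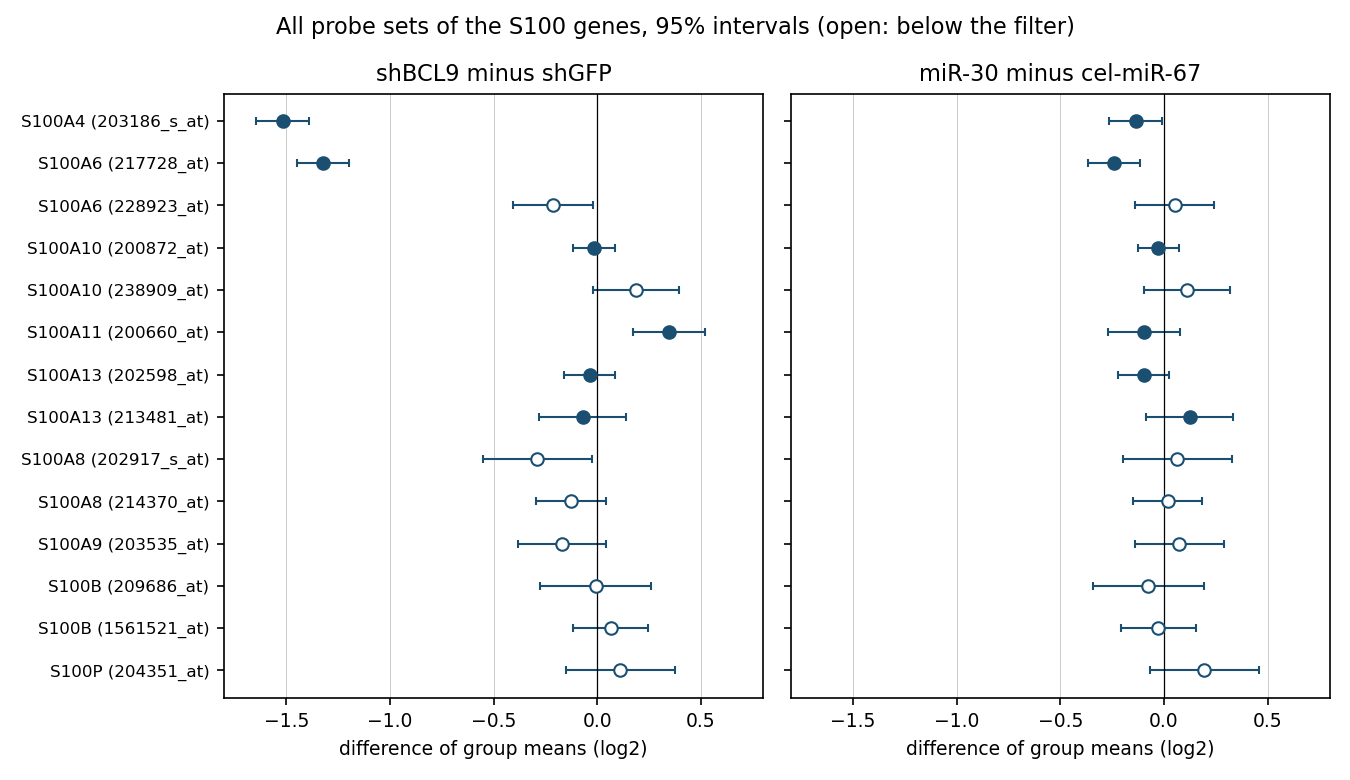
Log2 difference with its 95% interval for all 14 probe sets of the S100 genes, shBCL9 minus shGFP on the left and miR-30 minus cel-miR-67 on the right. Filled points passed the level filter and open points did not. In the hairpin arm the brighter probe sets of S100A4 and S100A6 stand at -1.52 and -1.32, and in the transfected arm no probe set lies beyond -0.24 on the low side.

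The arms were compared by subtracting the difference in the hairpin arm from that in the transfected arm. This came to 1.38 for S100A4 (95% interval 1.20 to 1.56), 1.08 for S100A6 (0.90 to 1.26) and -0.44 for S100A11 (-0.69 to -0.20), and these 3 were called, where 26.3% of all genes were called either way. For S100A10 it was -0.01 (95% interval -0.15 to 0.13) and for S100A13 -0.06 (-0.24 to 0.11). The hairpin arm was infected and sorted and the other transfected, so the treatment and the handling cannot be told apart in this contrast.

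The control groups differed from each other for some members. S100A6 averaged 11.64 ± 0.07 in shGFP and 12.56 ± 0.05 in cel-miR-67 (SD, n = 3 each), a difference of -0.92 (95% interval -1.05 to -0.80). S100A11 averaged 10.56 ± 0.05 in shGFP and 11.50 ± 0.06 in cel-miR-67 (SD, n = 3 each), a difference of -0.94 (95% interval -1.12 to -0.77). In both genes the shGFP arrays all lay below the cel-miR-67 arrays. The share of all genes whose control groups do not overlap was not counted. S100A4 differed by 0.04 (95% interval -0.09 to 0.17), S100A10 by 0.02 and S100A13 by -0.02. Of all genes 33% were called lower and 28.4% higher in shGFP. With the ACTB 3' to 5' difference in the model, S100A11 differed by -1.49, and S100A6 differed by -0.95 and was no longer called. The mean of its probe sets gave -0.42 for S100A6. The ACTB measure itself stood at 1.296 ± 0.107 in shGFP and 2.155 ± 0.085 in cel-miR-67 (SD, n = 3 each). The model can therefore hardly separate it from the difference between the controls. What part it has in the lost call was not tested.

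Over the 4 groups S100A6 therefore ran from 12.56 in cel-miR-67 through 12.32 in miR-30 and 11.64 in shGFP down to 10.32 in shBCL9, with no overlap between neighbours. S100A11 ran from 11.50 in cel-miR-67 through 11.40 in miR-30 and 10.90 in shBCL9 to 10.56 in shGFP, also without overlap. S100A4 was at 11.80 in shGFP, 11.76 in cel-miR-67 and 11.62 in miR-30, which overlapped as neighbours, and at 10.28 in shBCL9, which stood apart. S100A10 ranged from 9.32 to 9.44 over all 12 arrays and S100A13 from 6.89 to 7.08, with every pair of neighbouring groups overlapping.

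The 4 other members were near the background. S100A8, a subunit of the calprotectin complex of neutrophils, ran from 4.23 to 5.00 in its brighter probe set and from 2.80 to 3.06 in the other. S100A9, its partner in that complex, ran from 3.89 to 4.42. Of the myeloid markers 4 passed the filter in the same arrays and the others did not, as given above. S100B ran from 3.54 to 4.08 and from 2.39 to 2.81 in its probe sets, and S100P from 4.47 to 5.02. In the hairpin arm the difference was -0.29 (95% interval -0.55 to -0.03) for the brighter S100A8 probe set, -0.17 (-0.38 to 0.04) for S100A9, -0.01 (-0.28 to 0.26) for S100B and 0.11 (-0.15 to 0.38) for S100P. Between miR-30 and cel-miR-67 it was 0.06 (95% interval -0.20 to 0.33) for S100A8, 0.08 (-0.14 to 0.29) for S100A9, -0.08 (-0.34 to 0.19) for S100B and 0.20 (-0.07 to 0.46) for S100P. Of these 8 intervals, that of S100A8 in the hairpin arm left out 0, and its groups overlapped. Between the controls S100A8 differed by 0.41 (95% interval 0.15 to 0.67) and S100A9 by 0.30 (0.08 to 0.51), both with all shGFP arrays above the cel-miR-67 arrays, although these levels are below the filter. In that comparison 28.4% of all genes tested were called higher in shGFP, so little is read from this.

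S100A genes lie together in a cluster on chromosome 1, and 16 of them are in the gene table, 7 of them members. In their order S100A5 lies between S100A6 and S100A4, and S100A3 follows S100A4. S100A5 differed by 0.19 and S100A3 by 0.06 in the hairpin arm (limma adjusted p = 0.133 and 0.58), and neither was called. In shGFP they averaged 5.69 ± 0.09 and 5.63 ± 0.08 (SD, n = 3 each), not far above the filter level of 4.86 to 4.95. At such levels a drop as large as those of S100A6 and S100A4 may not show. These values therefore do not tell whether S100A5 and S100A3 were spared. Of the 11 other S100 genes on the array 7 were tested, and limma called 0 in either arm, with 0 at an unadjusted p under 0.05 as well. In the hairpin arm 2 were called with array weights, and 1 without replicate 2 of shGFP or without replicate 1 of miR-30. The median difference of these 7 was 0.12 in the hairpin arm and -0.05 in the transfected arm. S100A2 averaged 5.32 ± 0.36 in shGFP and 6.14 ± 0.17 in cel-miR-67 (SD, n = 3 each), a difference of -0.82 (limma adjusted p = 0.0002). Its shGFP level was also not far above the filter. Between the controls 0 to 2 of the other S100 genes were called over the alternatives. Of the 7 genes of the fused type, such as filaggrin, which join an S100 domain to a long repeat, 5 were on the array and 0 passed the filter.

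**Figure D3:**
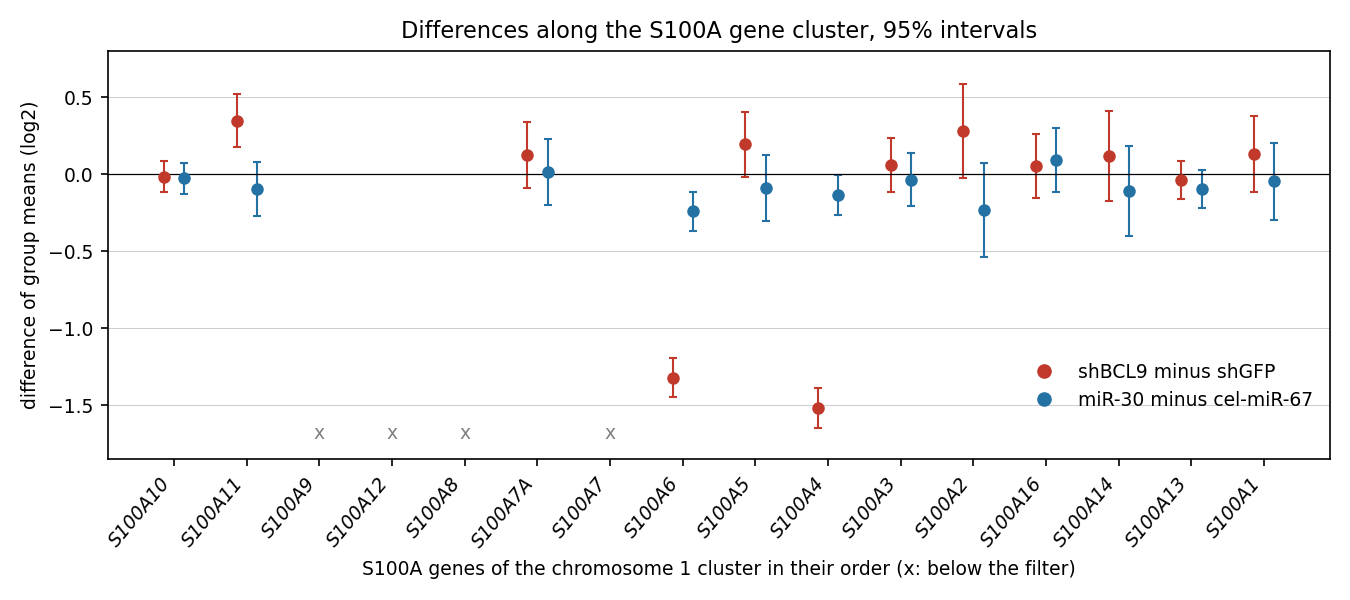
Log2 difference with its 95% interval for the 16 S100A genes of the chromosome 1 cluster, in their order and without distances, shBCL9 minus shGFP beside miR-30 minus cel-miR-67, with a cross for genes below the filter. S100A6 and S100A4 stand at -1.32 and -1.52 in the hairpin arm. S100A5, whose level was not far above the filter, stands between them at 0.19.

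Genes within 250 kb of the cluster, without S100 genes, gave 40 genes with a probe set and 23 tested. In the hairpin arm limma called 4 lower and 0 higher (5 and 3 at an unadjusted p under 0.05), with a median of 0.02, where 22.9% of all genes were called lower and 18.7% higher. With plain probe sets only 1 was called, and with the mean of probe sets or further quantile normalization 7 were. The fatty acid transporter family gene SLC27A3 differed by -0.54 (limma adjusted p = 1.39e-05), LINC01527 by -0.48 (0.00577), the thioesterase gene THEM4 by -0.25 (0.00103) and INTS3, a subunit of the integrator complex, by -0.21 (0.0176). INTS3 was not called with the mean of its probe sets, with the ACTB 3' to 5' difference in the model or without replicate 1 or 3 of shBCL9. Against cel-miR-67, 2 fell in miR-30, the cornified envelope genes SPRR2C by 0.77 and LCE1B by 0.45 on the log2 scale (limma adjusted p = 0.0158 and 0.0281), and 0 rose, also at an unadjusted p under 0.05. Both calls were lost without replicate 2 or 3 of cel-miR-67 and without replicate 1 or 2 of miR-30, and that of LCE1B also without replicate 1 of cel-miR-67.

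Of 13 binding partners and receptors, all tested, 3 rose and 4 fell in shBCL9 against shGFP, with a median of 0.03, where 18.7% of all genes were called higher and 22.9% lower. With the ACTB 3' to 5' difference in the model 3 of the 7 were called, S100PBP, ANXA6 and BSG, and with plain probe sets 2 genes of the list were. S100PBP, which binds S100P, fell to 9.71 ± 0.04 in shBCL9, against 10.24 ± 0.11 in shGFP (SD, n = 3 each), a difference of -0.53 (limma adjusted p = 2.73e-05). ANXA6, an annexin that binds S100A6, rose to 7.73 ± 0.08 in shBCL9, against 7.22 ± 0.07 in shGFP (SD, n = 3 each), a difference of 0.52 (limma adjusted p = 3.31e-05). BSG, a receptor for S100A9, rose by 0.39 (limma adjusted p = 0.00091). AHNAK, a scaffold bound by S100A10 with annexin A2, differed by -0.44 (limma adjusted p = 5.38e-05) in its brightest probe set, while the other 3 of its 4 probe sets above the filter had the other sign. Its probe sets averaged -0.02.

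The annexins of the list moved in different directions. ANXA2, the partner of S100A10, averaged 12.34 ± 0.05 in shBCL9, against 12.11 ± 0.03 in shGFP (SD, n = 3), a difference of 0.23 (limma adjusted p = 0.00424), with 3 of 3 probe sets above the filter on the same side. ANXA11, a partner of S100A6, differed by -0.28 (limma adjusted p = 0.000728). ANXA1, the partner of S100A11, stood at 4.81 ± 0.24 in shBCL9, against 5.14 ± 0.04 in shGFP (SD, n = 3), near the filter level, a difference of -0.33 (limma adjusted p = 0.014). AGER and TLR4, receptors of released S100 proteins, differed by 0.10 and 0.15 and were not called (limma adjusted p = 0.341 and 0.264). CACYBP, a partner of S100A6, differed by -0.14 and was not called (limma adjusted p = 0.0882).

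In the transfected arm ANXA6 alone of the 13 was called, at 7.98 ± 0.04 in miR-30 and 8.26 ± 0.10 in cel-miR-67 (SD, n = 3 each), a difference of -0.28 (limma adjusted p = 0.025). That call was lost with the mean of its probe sets, with only the 6 arrays of the arm, with the ACTB 3' to 5' difference in the model, and without replicate 1 or 2 of cel-miR-67 or replicate 2 or 3 of miR-30. Over all alternatives 0 to 3 of the 13 were called. ANXA2 differed by -0.19 (limma adjusted p = 0.0633). Between the controls ANXA1 was at 5.14 ± 0.04 in shGFP and 8.32 ± 0.05 in cel-miR-67 (SD, n = 3 each), a difference of -3.17 (limma adjusted p = 2.65e-11) with the shGFP level close to the filter, in the same arrays in which S100A11 was lower. CACYBP was at 11.98 ± 0.07 in shGFP and 10.91 ± 0.10 in cel-miR-67 (SD, n = 3 each), higher by 1.07 (limma adjusted p = 6.41e-09).

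**Figure D4:**
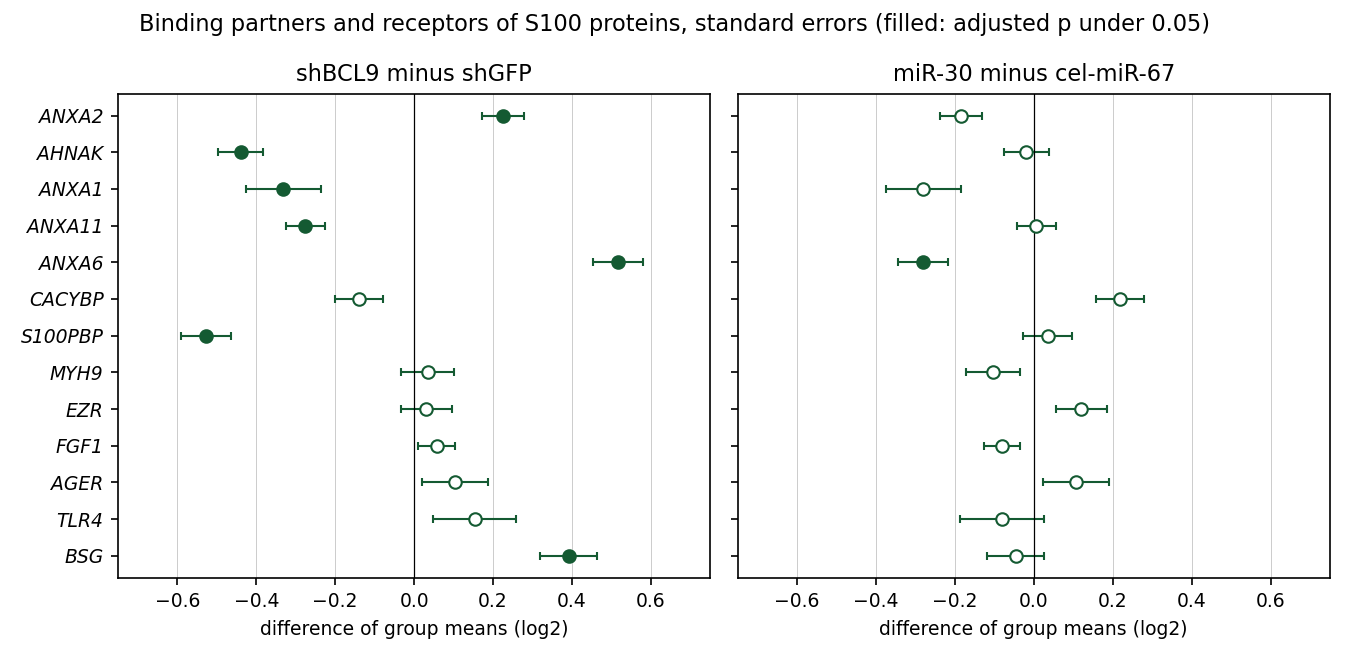
Log2 difference with its standard error for the 13 binding partners and receptors of S100 proteins, shBCL9 minus shGFP on the left and miR-30 minus cel-miR-67 on the right; filled points had an adjusted p under 0.05. Filled points stand on both sides of 0 in the hairpin arm, from -0.53 for S100PBP to 0.52 for ANXA6, and ANXA6 at -0.28 is the filled point of the transfected arm.

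Of the 9 other annexins 7 were on the array and 4 were tested. ANXA4 rose by 0.41 in shBCL9 (limma adjusted p = 0.00145) and 0 fell (1 at an unadjusted p under 0.05). The call of ANXA4 was lost with the ACTB 3' to 5' difference in the model. Among the same annexins limma called 0 in the transfected arm, with 2 lower at an unadjusted p under 0.05. Of 24 other genes with EF-hands 21 were on the array and 19 tested, of which 4 rose and 4 fell in the hairpin arm, with a median of 0.06, where 18.7% of all genes were called higher and 22.9% lower. With the ACTB 3' to 5' difference in the model 4 of these 8 were called. For miR-30 against cel-miR-67 limma called 0 of them, with 1 higher and 4 lower at an unadjusted p under 0.05. In shBCL9 against shGFP the gene GCA, or grancalcin, differed by -0.68 (limma adjusted p = 0.000155) and PDCD6, which acts in membrane repair and secretion, by -0.49 (1.91e-05). In the same comparison RCN1, a calcium-binding protein of the endoplasmic reticulum, differed by 0.55 (limma adjusted p = 6.62e-07) and SDF4, of the Golgi, by 0.38 (5.06e-05). These 4 were the ones called with the ACTB 3' to 5' difference in the model.

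Likeness to a member was measured as the root mean square difference between levels over the 12 arrays, after each gene's own mean was subtracted, so that 0 is an identical pattern. For S100A6, whose group means spanned 2.25, the nearest genes were PKHD1 at 0.11, TTC22 at 0.12, H1-2 at 0.13, ZNF81 at 0.13 and PRICKLE2 at 0.14. For S100A4, with a span of 1.52, they were BDH2, TCEAL9 and MBP at 0.12 each, and ELK3 and RFTN1 at 0.13 each. For S100A11, with a span of 0.94, they were TMEM41A at 0.08, and PLCXD1, CDK2AP2, SEMA4C and GOLGA2 at 0.09 to 0.10. S100A4 ranked 507 among the genes most like S100A6, at 0.42, and S100A6 ranked 656 among those most like S100A4.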

How the data were processed

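Per the labels' protocols, Trizol RNA was biotin-labelled with a kit for 3' in vitro transcription. The deposited values are log2 intensities per probe set, which the authors made with RMA and affy (versions not stated), per the submitters' processing notes. The genome build is not given in the sources used here. Array medians were 5.46 to 5.53, so no further normalization was applied, and 17 to 90 values were exactly equal in any pair of arrays. The number of arrays limits the precision. Of the probe sets 41097 had 1 gene symbol in the platform annotation, 1801 several and 11777 none listed.

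All 12 arrays entered a limma 3.58.1 model (R 4.3.3) with 4 group means, with Benjamini-Hochberg adjustment over 14725 genes. RNA measures were compared by exact permutation (scipy 1.17.1), and figures drawn with matplotlib 3.10.9. On simulated shBCL9 and shGFP arrays of 14725 genes, limma called 16 of 50 genes given a log2 change of 0.25, 44 of 50 given 0.5, and all 50 given 1 and all 50 given 2, and made 4 false calls. The simulated noise followed the fitted variances, independent for each gene and array, with no shift shared by a group. These counts therefore check the code and do not carry over to the measured arrays. The members, the lists and the tests were chosen with earlier results of these data known. Named genes were the members, up to 4 called genes a list and comparison by size, the 5 most like each of 3 members, and markers. S100A2, S100A3, S100A5, ANXA1, ANXA2, ANXA11, AGER, TLR4 and CACYBP fall outside that rule and were named after their values were seen, as were the values of ANXA1 and CACYBP between the controls. Alternatives changed the filter, the choice of probe sets, the normalization, the arrays fitted, the variance model, a replicate block and an RNA covariate, and left out each array in turn.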

Additional observations from a re-analysis of the deposited data

Results flagged for a closer look

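For 3 members the effect in the transfected arm differed from that in the hairpin arm. For S100A4 the difference of effects was 1.38 on the log2 scale, since it was lower in shBCL9 by far more than in miR-30. For S100A6 it was 1.08, again with the larger drop in shBCL9. For S100A11 it was -0.44, since the gene was higher in shBCL9 and slightly lower in miR-30 than in the control of each arm. With the ACTB 3' to 5' difference in the model these became 1.33, 1.07 and -0.74, and averaging both probe sets of S100A6 gave 0.67.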

How the results depend on the processing

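Of 451 recomputed differences of the tested members, 439 kept their side of the threshold, 11 lost a call and 1 gained one. No called difference changed sign, and 18 that were not called did. In the hairpin arm S100A4 ran from -1.55 to -1.48 and S100A6 from -1.35 to -0.77, and leaving out an array gave -1.55 to -1.49 and -1.36 to -1.28. S100A11 ran from 0.32 to 0.59, and from 0.24 to 0.43 with an array left out. S100A4 has no value with plain probe sets only.

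In the transfected arm 0 members were called without a filter, with the mean of probe sets, with only the 6 arrays and with the ACTB covariate, and 0 to 1 with an array left out. Between the controls 4 members were called without a filter and 1 with the covariate. S100A10 gained a call there with the mean of its probe sets, at 0.15.

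Over all genes the covariate left 2967 calls in the hairpin arm, against 6118, 1717 for the difference of effects, against 3872, and 1658 between the controls, against 9044. The ACTB measure itself differed between the groups of the hairpin arm and between the controls. The model can therefore hardly separate it from those group differences. In the transfected arm 733 genes were called, against 1113 with a filter at the 60th percentile, 475 with plain probe sets, 443 with the 6 arrays, 1220 with array weights, 1419 with the trended and robust variance model and 297 to 764 with an array left out. The lowest was without replicate 2 of cel-miR-67. The filter and plain probe sets change which genes are tested, and fewer arrays enter where some are left out. For the others the cause was not tested. The list counts moved by over 1.5 times in 68 of 546 cases.

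Replicate numbers were not taken to pair arrays, since not every array correlated best with its own number. Same-numbered arrays correlated at 0.05, 0.10 and 0.07 in the hairpin arm and at 0.12, 0.09 and 0.23 in the transfected arm. Differently numbered arrays ran from -0.149 to 0.065 and from -0.242 to 0.126, so the same-numbered values were mostly the higher ones. Whether arrays of a number share handling was not tested. With a replicate block 3 members were called in the hairpin arm, 1 in the transfected arm, 3 for the difference of effects and 2 between the controls, and 6201, 695, 3972 and 9108 genes in all. The 6 arrays of an arm alone could not give the difference of effects.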
